A study of Mus musculus with 16 samples.

Results

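The DNA replication and G1/S genes described here are 41 mouse genes that act at the entry to S phase or at the replication fork. They were chosen by symbol. Every array probe was taken whose annotation names exactly 1 of these genes, which gave 63 probes among 38467 and covered all 41 genes among the 19640 that the array measures. Of the 41 genes, 15 had several probes and 26 had 1.

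Before S phase, origins are licensed. The origin recognition complex, Cdc6 and Cdt1 load the MCM helicase on DNA, and Mcm10, Cdc45 and the GINS complex help to turn it into an active fork. Polymerases then copy the strands with the sliding clamp PCNA, which replication factor C loads, while RPA coats single strands and Fen1 and Lig1 process and join Okazaki fragments. Cyclin E and E2F factors drive the passage from G1 into S, and many genes of this machinery are E2F targets. In preadipocytes this machinery is known for the rounds of division that a hormone mix containing a glucocorticoid sets off before the cells differentiate.

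The cells were 3T3-L1, a mouse line of preadipocytes that can be induced to form adipocytes. The 4 groups were dex for 36 h, DMSO for 36 h, dex for 2 h and DMSO for 2 h, with 4 biological replicates each, where dex is the synthetic glucocorticoid dexamethasone and DMSO its solvent. The labels used here do not say whether the cells were dividing or confluent, or whether other hormones were present. Each of the 16 arrays compared 1 sample, in Cy5, with a pool of the samples in Cy3, so a value is the log2 ratio of sample over pool (base 2 was taken, since the sources used here do not state it) and not a level that can be set against another gene's.

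The arrays and the treatment were first checked on the whole data set. Of 8 known glucocorticoid receptor targets, 7 rose at 36 h and 8 at 2 h (median log2 change 2.00 and 2.43). At 36 h under dex, 6 of 8 fibroblast and preadipocyte markers fell and 3 of 6 adipocyte markers rose, while 1 of 4 epithelial markers rose, 1 of 5 macrophage markers fell and 0 of 4 endothelial markers passed (0 at an unadjusted p under 0.05, limma). Over all genes, 6.88% rose and 4.96% fell at 36 h, and 1.97% rose at 2 h. Ratios to a pool cannot show which markers are absent. The 36-hour arrays were less noisy, with residual SDs of 0.108 to 0.205 across probes, against 0.168 to 0.435 at 2 h, and DMSO 2 h replicate 4 correlated negatively with its own group (mean r across probes -0.10).

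The main question was which of these genes differed between dex and vehicle after 36 h. Ribonucleotide reductase (Rrm1 and Rrm2) and thymidine kinase (Tk1) were higher under dex on at least 1 probe. So were the clamp loader subunit Rfc5, cyclin E1 (Ccne1) and the helicase subunit Mcm7. On the probe chosen for each gene, by the lowest p on these same arrays, the change was 1.23-fold to 1.59-fold. Rrm1 has 1 probe. Each of the other 5 genes has a further probe that did not pass, at -0.16 (Ccne1), -0.19 (Rfc5), -0.47 and 0.07 (Rrm2), 0.07 (Tk1) and 0.13 (Mcm7). These 6 of 41 genes (14.6%) passed, all upward, and 0 passed downward, against 11.7% of all 19640 genes in either direction, 6.88% upward and 4.96% downward. A gene passed where at least 1 of its probes had a Benjamini-Hochberg adjusted p under 0.05 over all probes in limma. Each change is given on the log2 scale as dex minus DMSO ± its SE, with n = 4 arrays per group, unless another comparison is named. Of the 41 genes, 28 had a positive and 13 a negative change, each on the 1 probe chosen for the gene. The median was 0.21, from -0.39 for Chaf1a to 0.67 for Rrm1, beside a median of -0.0017 over all genes. The share with a positive change was 68.3%, against 49.6% of all genes. At an unadjusted p under 0.05 the count was 14. The share of all genes at that unadjusted cut was not worked out, here or for the unadjusted counts below. In RNA of whole cultures, more cells in S phase and more RNA per cell cannot be told apart.

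**Figure D1:**
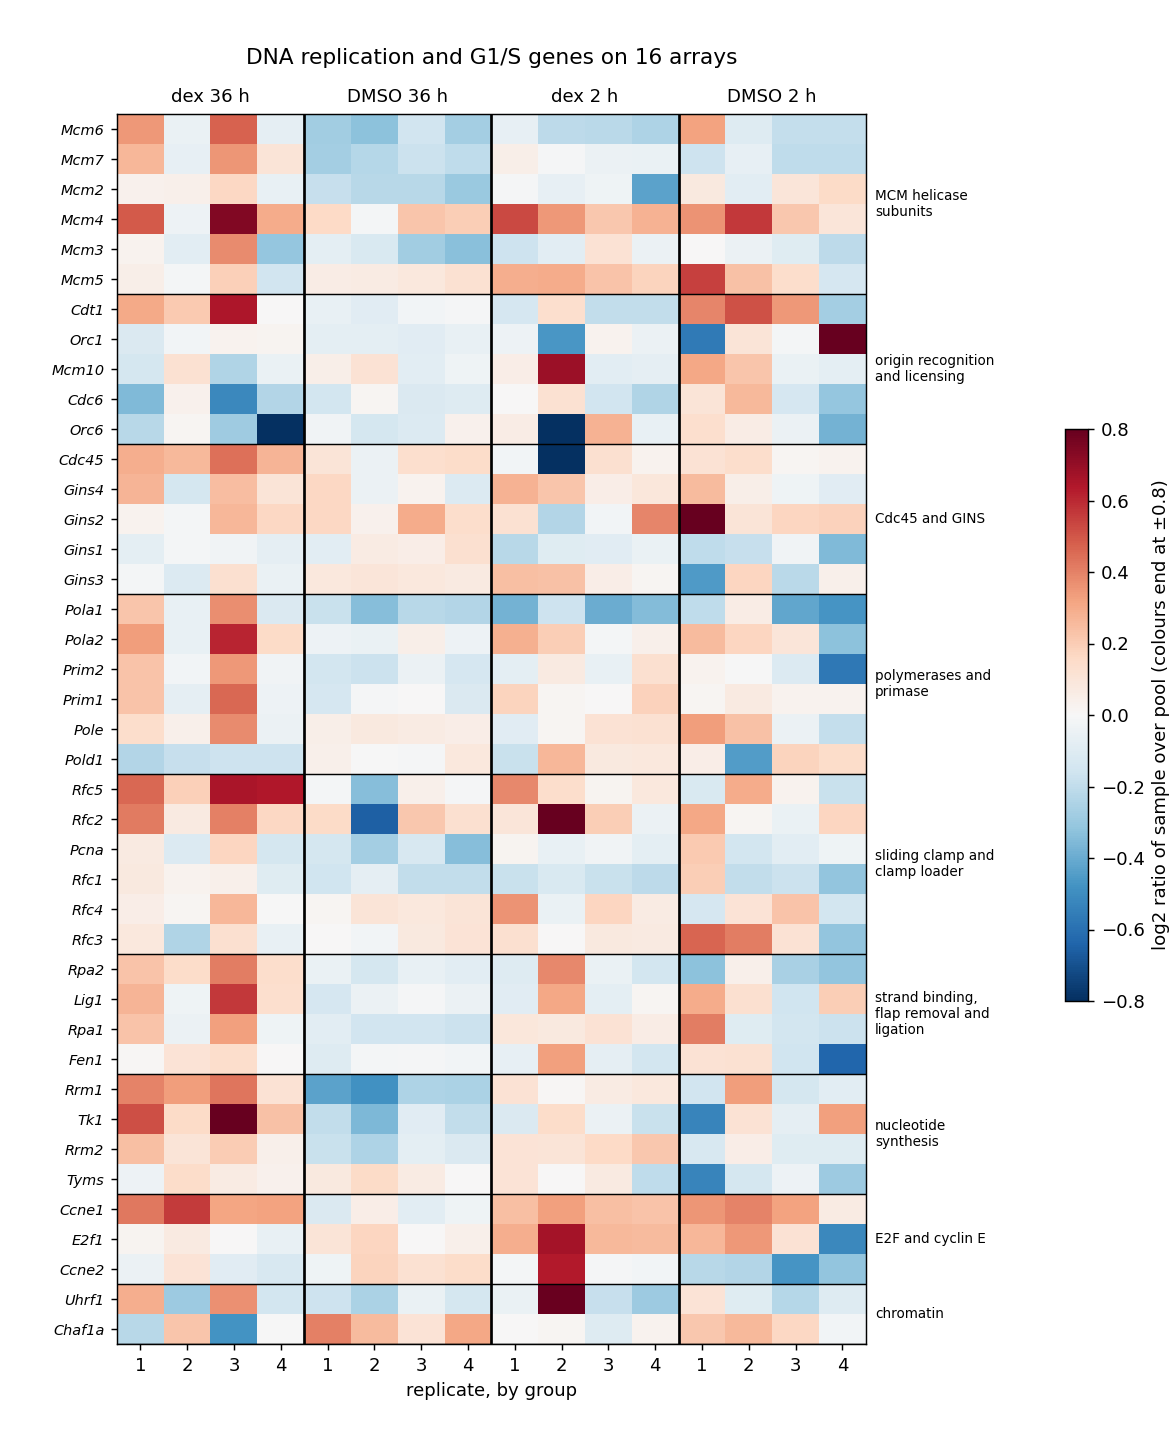
Log2 ratio of sample over pool for the 41 genes (rows, by role, each group of roles from the highest to the lowest dex change at 36 h) on the 16 arrays (columns, by group and replicate); colours end at ±0.8. Red cells gather in dex 36 h replicates 1 and 3, and the DMSO 36 h columns are mostly pale or blue.

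The DNA upstream of the genes that passed was read from RefSeq promoter windows of build GRCm38.p6, which reach from 250 bases before to 50 after a gene's start. The windows matched 33 of the 41 genes (38 promoters). The genes Gins1, Gins2, Gins4, Mcm4, Rfc2, Pole, Ccne2 and Prim2 had none. A script searched both strands for the E2F words TTTCCCGC, TTTCGCGC, TTTGCCGC and TTTGGCGC, for CCAAT and for the palindrome of the glucocorticoid response element. An E2F word was in 13 of 38 promoters (34.2%), against 2.26% of 32851 promoters of the same length, and CCAAT was in 23 (60.5%), against 37.4%. The palindrome was in 0 of 38 and in 0.00913% of all promoters, so it was rare everywhere.

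The sequences below are the 150 bases before the start, or for Mcm7 the 30 bases from -176 to -147 around 1 of its E2F words, shown for the genes with the smallest p at 36 h, and for Mcm6, which was added after its values were seen because it holds 3 E2F matches. Capitals mark E2F words and CCAAT boxes, on either strand; the window of Mcm7 also holds an E2F word and 3 CCAAT boxes outside the stretch shown. They are Rrm1 (chr7:102441545-102441694, + strand), Ccne1 (chr7:38107491-38107640, - strand), Mcm7 (chr5:138172030-138172059, - strand, 30 bases), Rfc5 (chr5:117389024-117389173, - strand) and Mcm6 (chr1:128359706-128359855, - strand).
Rrm1: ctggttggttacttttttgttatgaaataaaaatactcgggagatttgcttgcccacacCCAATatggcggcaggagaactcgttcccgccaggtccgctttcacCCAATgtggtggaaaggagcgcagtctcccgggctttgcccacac
Ccne1: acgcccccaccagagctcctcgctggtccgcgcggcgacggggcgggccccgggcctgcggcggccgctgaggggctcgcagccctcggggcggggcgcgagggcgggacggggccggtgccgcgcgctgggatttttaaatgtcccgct
Mcm7: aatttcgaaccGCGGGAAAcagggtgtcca
Rfc5: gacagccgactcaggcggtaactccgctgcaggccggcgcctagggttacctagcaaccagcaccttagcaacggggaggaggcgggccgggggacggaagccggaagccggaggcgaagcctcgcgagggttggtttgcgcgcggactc
Mcm6: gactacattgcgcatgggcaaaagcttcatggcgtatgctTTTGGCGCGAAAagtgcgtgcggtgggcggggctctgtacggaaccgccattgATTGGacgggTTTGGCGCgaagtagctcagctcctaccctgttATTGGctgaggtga

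Rrm1 has 2 CCAAT boxes and no E2F word in its window, the stretch printed for Mcm7 has an E2F word on the opposite strand, and Ccne1 and Rfc5 have neither. In Mcm6, 2 of the 3 E2F words overlap. Of the 6 genes that rose at 36 h, Mcm7 alone had one of these E2F words in a window. Mcm7 has 2 windows, and the one not described above (chr5:138171217-138171516) holds 0 E2F words. The other 12 genes with such a word did not pass at 36 h. Their changes were 0.43 (Mcm6), 0.35 (Pola1), 0.34 (Cdt1), 0.29 (Lig1), 0.21 (Mcm3), 0.21 (Uhrf1), 0.05 (Orc1), -0.06 (Rfc3), -0.06 (Mcm5), -0.10 (Gins3), -0.18 (Cdc6) and -0.21 (Pold1). A match is a description of letters and not a binding site.

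The nucleotide synthesis genes held the highest changes. Rrm1, the large subunit of the enzyme that makes deoxyribonucleotides, had log2 ratios of 0.40, 0.33, 0.43 and 0.12 on the dex 36 h arrays, against -0.43, -0.48, -0.25 and -0.26 on the DMSO 36 h arrays. The 2 groups did not overlap, and the lowest dex array lay above the pool while all DMSO arrays lay below it. The difference was 0.67 ± 0.11 (limma adjusted p = 8.86e-04), or 1.59-fold with a 95% interval of 0.44 to 0.91 on the log2 scale. Its 2-hour ratios were 0.12, 0.01, 0.07 and 0.09 under dex, against -0.15, 0.33, -0.14 and -0.09 under DMSO, and these overlapped (change 0.08, limma adjusted p = 0.85).

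Tk1, which salvages thymidine, had 0.52, 0.15, 0.93 and 0.23 on the dex 36 h arrays, against -0.20, -0.36, -0.09 and -0.20 on the DMSO 36 h arrays. All dex arrays were higher than all DMSO arrays, but replicates 1 and 3 stood well above the others of their group. The change was 0.67 ± 0.18 (limma adjusted p = 0.0287), and a second Tk1 probe gave 0.07. At 2 h the Tk1 ratios overlapped, with -0.12, 0.15, -0.05 and -0.18 under dex, against -0.53, 0.12, -0.07 and 0.33 under DMSO.

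Rrm2, the small subunit of the reductase, had 0.24, 0.10, 0.21 and 0.04 on the dex 36 h arrays, against -0.18, -0.25, -0.08 and -0.12 on the DMSO 36 h arrays. These groups were apart by a small margin (change 0.30 ± 0.07, limma adjusted p = 0.0167). Its 4 probes disagreed, since a second one passed upward with 0.32 and the other two gave 0.07 and -0.47 (limma adjusted p = 0.0419, 0.968 and 0.121). The Rrm2 ratios at 2 h were 0.11, 0.10, 0.16 and 0.22 under dex, against -0.13, 0.05, -0.10 and -0.09 under DMSO, which also did not overlap, yet the change of 0.21 ± 0.07 did not pass (limma adjusted p = 0.234). Tyms, thymidylate synthase, completed the group with -0.02 at 36 h (limma adjusted p = 0.975). Its other probes gave 0.21 and -0.32, neither past the threshold.

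Among the G1/S regulators, Ccne1 had 0.42, 0.56, 0.31 and 0.32 on the dex 36 h arrays, against -0.12, 0.05, -0.08 and -0.04 on the DMSO 36 h arrays. The groups were clearly apart, by 0.45 ± 0.09 (limma adjusted p = 0.00334). Its 2-hour arrays gave 0.24, 0.33, 0.24 and 0.23 under dex, against 0.36, 0.39, 0.32 and 0.07 under DMSO. The DMSO 36 h arrays were thus the low ones, and the other 3 groups overlapped in part. A second Ccne1 probe did not pass, with -0.16 (limma adjusted p = 0.473).

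E2f1, the E2F factor that activates many of these genes, had 0.02, 0.07, 0.0016 and -0.06 on the dex 36 h arrays, against 0.10, 0.17, 0.01 and 0.04 on the DMSO 36 h arrays. These groups overlapped, and the change of -0.07 did not pass (95% interval -0.40 to 0.25, limma adjusted p = 0.913). At 2 h its ratios were 0.29, 0.67, 0.26 and 0.25 under dex, against 0.26, 0.35, 0.12 and -0.51 under DMSO, so dex replicate 2 was high and DMSO replicate 4 low (change 0.31 ± 0.15, limma adjusted p = 0.479). Ccne2, cyclin E2, had a change of -0.14 at 36 h (limma adjusted p = 0.64), while its other probe gave 0.43 (limma adjusted p = 0.0746).

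**Figure D2:**
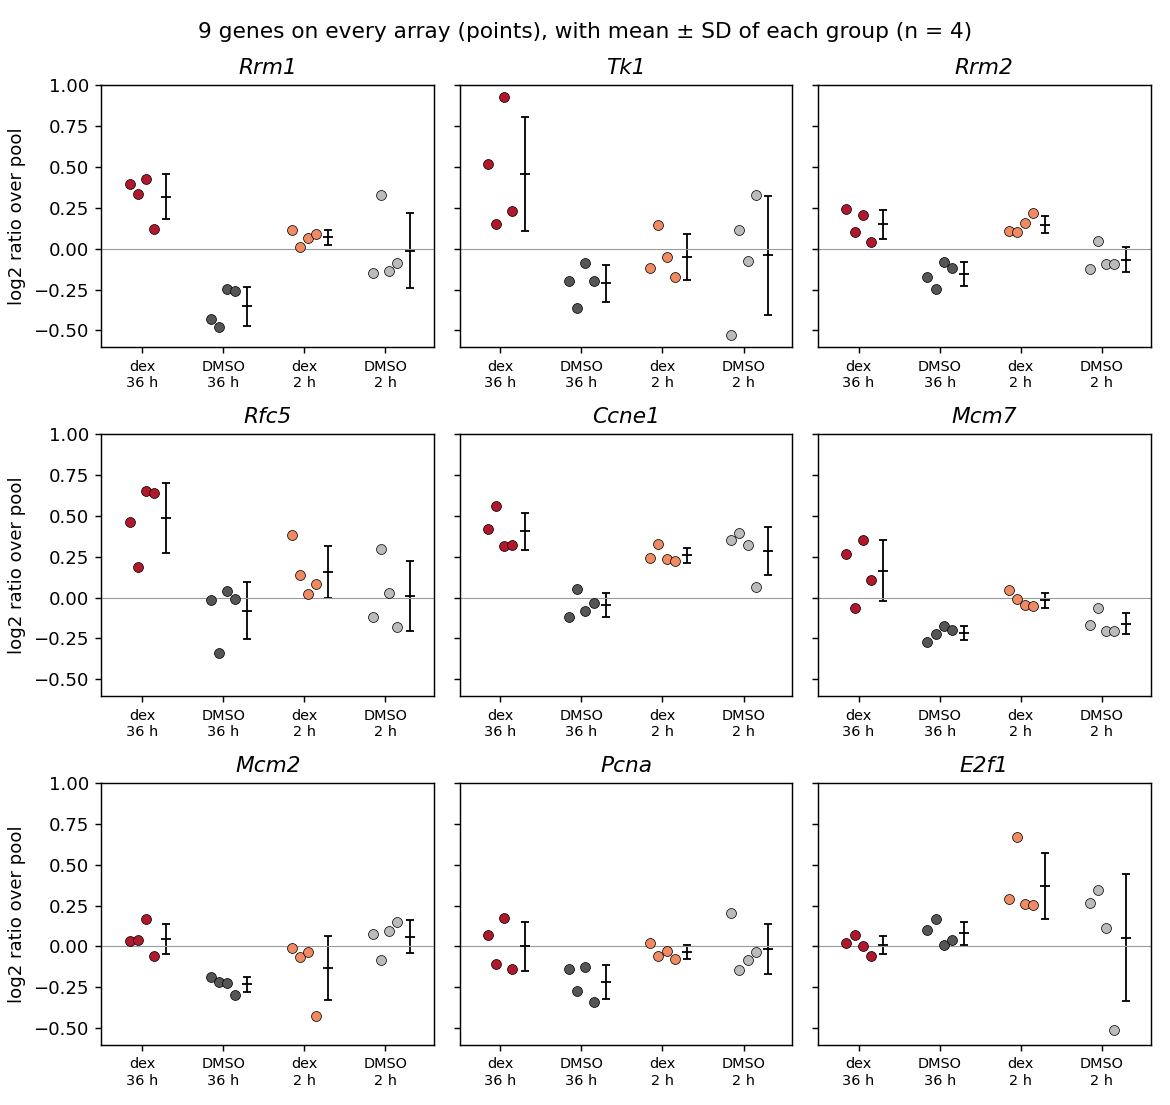
Log2 ratio over pool (vertical axis) on each array (points, left to right in replicate order) for 9 genes, with the mean ± SD of each group (n = 4). In Rrm1, Tk1, Rrm2, Rfc5, Ccne1, Mcm7 and Mcm2 every dex 36 h point lies above every DMSO 36 h point; in Pcna and E2f1 the 36-hour groups overlap.

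The MCM helicase has 6 subunits, of which 1 passed at 36 h and 5 had a positive change (median 0.25). Mcm7, whose printed stretch holds an E2F word, had 0.27, -0.06, 0.35 and 0.11 on the dex 36 h arrays, against -0.27, -0.23, -0.17 and -0.20 on the DMSO 36 h arrays. Dex replicate 2 was the lowest of its group and still lay above every DMSO array (change 0.38 ± 0.09, limma adjusted p = 0.0103). A second Mcm7 probe gave 0.13 (limma adjusted p = 0.631), and the 2-hour ratios were 0.05, -0.01, -0.05 and -0.05 under dex, against -0.17, -0.06, -0.20 and -0.20 under DMSO. Those 2-hour groups also did not overlap, though the change of 0.14 did not pass (limma adjusted p = 0.594).

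Mcm2 had 0.04, 0.04, 0.17 and -0.06 on the dex 36 h arrays, against -0.19, -0.22, -0.22 and -0.30 on the DMSO 36 h arrays. The groups were apart, yet the change of 0.28 ± 0.09 missed the threshold (limma adjusted p = 0.0873). At 2 h Mcm2 had -0.01, -0.06, -0.03 and -0.43 under dex, against 0.08, -0.08, 0.10 and 0.15 under DMSO, with dex replicate 4 far below the rest. Mcm6, with E2F words in its printed promoter, had the largest subunit change, 0.43, with 0.27 and 0.22 on its other probes, and also missed (limma adjusted p = 0.0584). Mcm3, Mcm4 and Mcm5 had 0.21, 0.23 and -0.06 (limma adjusted p = 0.372, 0.41 and 0.888). A second Mcm4 probe gave -0.08.

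Of the origin and licensing genes 0 of 5 passed in limma, and 0 at an unadjusted p under 0.05. Cdt1, which brings the helicase to origins, had 0.34 (adjusted p = 0.235), Orc1 0.05, Mcm10 -0.09, Cdc6 -0.18 and Orc6 -0.36. The error of Orc6 was 0.39, so this value says little. Other Cdc6 probes gave 0.0041 and 0.37. Cdc45 had 0.23 with an error of 0.38, which rests on 1 variance over all groups. Its SDs were 0.085 in dex 36 h and 0.090 in DMSO 36 h, against 1.20 in dex 2 h, where replicate 2 had -2.36. With only the 36-hour groups compared, Cdc45 passed (limma adjusted p = 0.0397), beside 23.2% of all genes. The GINS subunits lay between -0.10 (Gins3) and 0.11 (Gins4), with Gins1 at -0.09 and Gins2 at -0.05.

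Polymerase α and primase, which lay down the primers, had changes of 0.35 (Pola1), 0.28 (Pola2), 0.20 (Prim1) and 0.26 (Prim2), none past the threshold (limma adjusted p = 0.105 to 0.276). The catalytic subunits of the leading and lagging strand polymerases had 0.07 (Pole) and -0.21 (Pold1). The 4 genes of strand binding, flap removal and ligation were all positive on their chosen probes, with Rpa2 at 0.32, Lig1 at 0.29, Rpa1 at 0.26 and Fen1 at 0.10. Of these 4 genes, 0 passed in limma (3 at an unadjusted p under 0.05). Other Lig1 probes gave -0.06 and 0.21, and another Rpa2 probe 0.28.

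In the clamp and its loader, Rfc5 had 0.46, 0.19, 0.65 and 0.64 on the dex 36 h arrays, against -0.02, -0.34, 0.04 and -0.01 on the DMSO 36 h arrays. The groups did not overlap, although dex replicate 2 was well below the other 3 dex arrays and DMSO replicate 2 well below the other 3 DMSO arrays (change 0.57 ± 0.13, limma adjusted p = 0.0143). Its other probe gave -0.19 (limma adjusted p = 0.372), and at 2 h the ratios of 0.38, 0.14, 0.02 and 0.08 under dex overlapped those of -0.12, 0.30, 0.03 and -0.18 under DMSO.

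Pcna, the clamp itself, had 0.07, -0.11, 0.17 and -0.14 on the dex 36 h arrays, against -0.14, -0.27, -0.13 and -0.34 on the DMSO 36 h arrays. These groups overlapped (change 0.22 ± 0.09, limma adjusted p = 0.184). At 2 h Pcna had 0.02, -0.06, -0.03 and -0.08 under dex, against 0.21, -0.15, -0.09 and -0.04 under DMSO. The other loader subunits had 0.30 (Rfc2), 0.17 (Rfc1), 0.01 (Rfc4) and -0.06 (Rfc3). Other Rfc2 probes gave 0.07 and 0.08. In the chromatin group Uhrf1, which helps to copy DNA methylation to the new strand, had 0.21 (limma adjusted p = 0.661). Chaf1a, the large subunit of the chromatin assembly factor that follows the fork, had -0.39 (limma adjusted p = 0.0645).

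**Figure D3:**
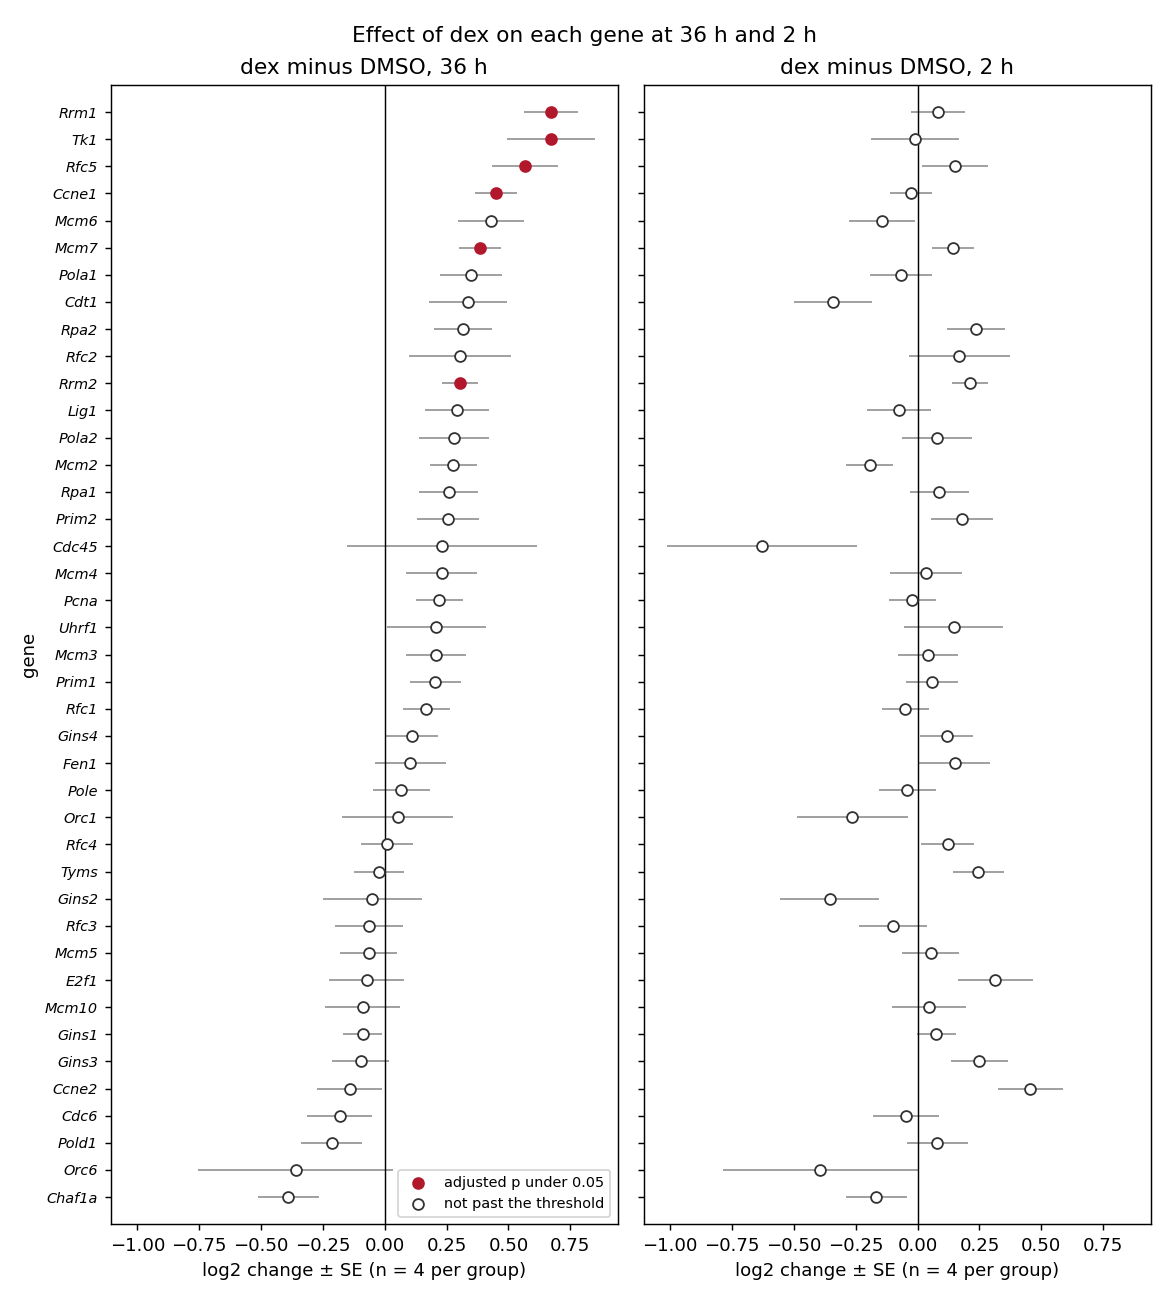
Log2 change, dex minus DMSO, with its SE (n = 4 per group) for each of the 41 genes at 36 h (left) and 2 h (right); filled points passed at an adjusted p under 0.05. The 6 filled points are all at 36 h and positive, and no gene is filled at 2 h.

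The dex 36 h replicates differed among themselves. The median ratio over the 41 genes was 0.14, 0.02, 0.27 and -0.03 in dex 36 h replicates 1 to 4, against -0.06, -0.05, -0.01 and -0.04 in DMSO 36 h. Replicate 3 was the highest dex 36 h array for 27 of the 41 genes (65.9%, against 33.5% of all genes), and replicates 1 and 3 were both above replicates 2 and 4 for 26 (63.4%, against 30.03% of all genes). Across all probes, these arrays also correlated best with each other (r = 0.79, with 0.16 to 0.47 for the other pairs of the group). The spread among the dex arrays (SD 0.13 of these medians) was larger than that among the DMSO 36 h arrays (SD 0.02). The part of this difference between replicates in the result was not tested. Without dex 36 h replicate 3 the median change at 36 h was 0.10 and 3 genes passed in limma (Ccne1, Mcm7 and Rrm1), beside 6.95% of all genes.

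The arrays were also compared without a model. At 36 h the 4 dex arrays lay above the 4 DMSO arrays in 15 of 41 genes, beside 15.3% of all genes, and below them in 1 gene, Pold1, beside 15.4%. Beside the 6 genes that passed, these were Mcm2, Mcm6, Cdt1, Cdc45, Pola1, Prim2, Rpa1, Rpa2 and Fen1.

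**Figure D4:**
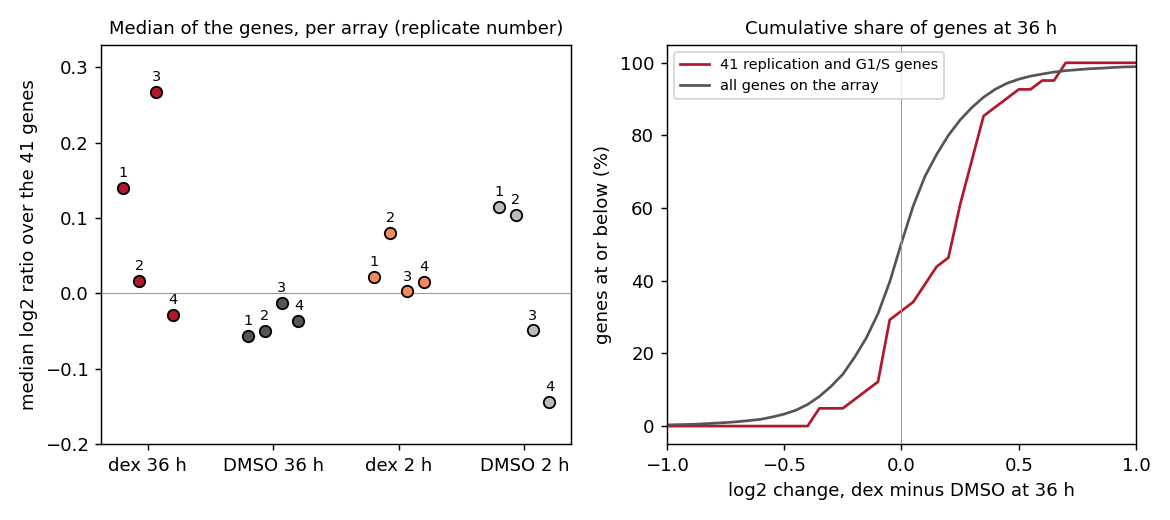
Left, the median log2 ratio over the 41 genes on each array, labelled by replicate; dex 36 h replicates 1 and 3 lie at 0.14 and 0.27 and the DMSO 36 h arrays between -0.06 and -0.01. Right, the cumulative share (percent) of the 41 genes and of all genes against the log2 change, dex minus DMSO at 36 h; the curve of the 41 genes lies to the right of that of all genes over most of the range.

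After 2 h of dex, 0 of the 41 genes passed in limma, against 3.18% of all genes. Of the 41, 5 had an unadjusted p under 0.05. The median change was 0.05 (-0.01 over all genes), with 24 positive and 17 negative changes from -0.63 for Cdc45 to 0.46 for Ccne2. Of all genes, 47.1% had a positive change. The Cdc45 value rests on 1 array, since dex 2 h replicate 2 had -2.36 and the others of its group -0.02 to 0.13. The other Cdc45 probe gave 0.17 at 2 h. In 3 genes (Ccne2, Mcm7 and Rrm2) the dex arrays lay above the DMSO arrays, against 4.01% of all genes, and in 0 below, against 3.7%.

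The difference between the dex effects at 36 h and at 2 h was tested as an interaction. Of the 41 genes, 0 passed in limma, against 3.48% of all genes. In this fit a response at 36 h that differs from that at 2 h was thus not shown for any of the 41. An unadjusted p under 0.05 was found for 10 of the 41. Ccne1 passed once each array was centred on its median (limma adjusted p = 0.0466), and 5 genes passed after quantile normalization, beside 7.15% of all genes. The closest were Ccne1 at 0.48 ± 0.12, Rrm1 at 0.59 ± 0.15 and Mcm2 at 0.47 ± 0.13 (limma adjusted p = 0.0531, 0.0599 and 0.0929). Cdc45 had the largest difference, 0.86, with an error of 0.54, but its other probe gave 0.04 with an error of 0.19.

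Over time in vehicle, 0 of the 41 genes passed in limma, against 1.26% of all genes. Of the 41, 7 had an unadjusted p under 0.05. In DMSO at 36 h against 2 h, 28 genes had a negative change and 13 a positive one (median -0.07, -0.02 over all genes). Of all genes, 45.5% had a positive change. All 6 MCM subunits and all 5 origin and licensing genes were negative on their chosen probes, but none passed in limma. Orc6 was at -0.0016 with an error of 0.39. Another Mcm7 probe gave 0.04 and other Cdc6 probes 0.07 and -0.19, while other probes of Mcm4 and Mcm6 were negative. Ccne1 and Rrm1 had changes of -0.33 and -0.34 (limma adjusted p = 0.104 and 0.2), and the DMSO 36 h arrays lay below all DMSO 2 h arrays in these and in Mcm2 and Prim1, against 8.31% of all genes. They lay above them in Ccne2 and Tyms, against 4.67%.

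Under dex at 36 h against 2 h, 0 genes passed in limma (8 at an unadjusted p under 0.05), against 2.43% of all genes. The median was 0.05 (0.0036 over all genes), with 28 positive changes, beside 50.7% of all genes. Cdc45, Pola1, Rfc1, Rrm1 and Tk1 were higher on every dex 36 h array than on every dex 2 h array, against 6.43% of all genes, and E2f1 was lower, against 8.07%. The other Cdc45 probe had a change of 0.01 over time under dex. The contrasts share arrays, so their counts are not independent of each other.

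Genes around this machinery were described from 5 further lists. Their counts at 36 h stand beside 6.88% of all genes that rose and 4.96% that fell. Of 31 E2F, RB, cyclin and CDK regulators, 7 rose and 1 fell at 36 h (median 0.13). Myc, a growth-promoting transcription factor, rose by 1.80, Ccnd1 (cyclin D1) by 0.94, the CDK inhibitor Cdkn1a by 0.69 and Cdk6, a partner of D cyclins, by 0.60 (log2, limma adjusted p = 8.20e-07, 5.02e-05, 2.79e-05 and 7.72e-05). The genes that rose thus hold both drivers and an inhibitor of the cycle. At 2 h Myc and Cdkn1a had already risen, by 1.10 and 0.85 (limma adjusted p = 2.89e-04 and 7.70e-06), whereas Ccnd1 had a change of 0.07 (limma adjusted p = 0.874). Fbxw7 and Tfdp2 did not pass at 36 h (0.32 each, limma adjusted p = 0.153 and 0.201).

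Of 37 measured genes of 38 further fork and origin genes, 3 rose and 3 fell (median 0.04), beside 6.88% and 4.96% of all genes. Rnaseh2a, a ribonuclease H2 subunit, rose by 0.51 and the MCM binding protein Mcmbp by 0.41, while Donson fell by 0.54 and Tipin by 0.50 (log2, limma adjusted p = 0.00413, 0.00326, 0.00229 and 0.0296). The histone chaperone Asf1b (0.43) and the checkpoint mediator Clspn (0.39) did not pass (limma adjusted p = 0.0792 and 0.0927).

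In nucleotide supply, 24 of 26 genes were measured, 6 rose and 0 fell (median 0.19). The purine synthesis genes Paics and Impdh1 rose by 0.78 and 0.53, the nucleotide kinase Nme2 by 0.53 and Samhd1 by 0.49 (log2, limma adjusted p = 4.96e-06, 3.83e-04, 7.56e-04 and 5.48e-04). Samhd1 breaks down deoxyribonucleotides and so does not act as the list's name says. Umps (0.45) and Gart (0.34) did not pass (limma adjusted p = 0.0522 and 0.188).

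Of 19 measured of 21 S phase checkpoint and repair genes, 2 rose and 2 fell (median 0.06), beside 6.88% and 4.96% of all genes. The kinase Atm fell by 0.53 and the ubiquitin ligase Rad18 by 0.51, while the uracil glycosylase Ung rose by 0.48 (log2, limma adjusted p = 0.0153, 0.0333 and 0.0459), and Usp1 passed upward on 1 of its 3 probes. Chek2 (-0.38) and Atrip (-0.30) did not pass (limma adjusted p = 0.0614 and 0.165).

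Of 24 measured of 25 G2 and mitosis genes, 7 rose and 1 fell, with a median of 0.46 that was above the median of 0.21 for the 41 replication genes. Nusap1, a spindle protein, rose by 1.22, cyclin B2 (Ccnb2) by 0.79, topoisomerase Top2a by 0.72 and Racgap1 by 0.62 (log2, limma adjusted p = 3.35e-04, 0.0199, 0.0118 and 0.00547). Bub1b (0.55) and Mad2l1 (0.52) did not pass (limma adjusted p = 0.0505 and 0.0708). Whether the lists differ from each other was not tested.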

How the data were processed

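The values, as deposited by the authors, were read as log2 ratios, with each sample set over the pool. Per the labels, the sample was in Cy5 and the pool in Cy3. No source used here gives the log base, background correction or normalization. Per the submitters' processing notes the authors used limma. Base 2 was taken. With the natural log instead, all changes would grow in the same proportion. Spot brightness was not analysed here, and the number of arrays limits the precision.

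Probes were named from the platform's annotation, updated by Entrez identifier through a RefSeq table of GRCm38.p6 (28735 of 29456 probes with 1 gene matched, 760 named several genes and 8251 none). limma 3.58.1 in R 4.3.3 fitted the 4 group means over all 16 arrays (lmFit, eBayes) without covariates, and p values were adjusted over all 38467 probes. Errors rest on 1 variance per probe over all groups. Of the values, 131 were missing on 3 dex 2 h arrays, none in the probes chosen for the 41 genes. The script was tested on simulated data. A gene's value is that of 1 probe, chosen as the one whose moderated F test over the 4 groups had the lowest p, on the same arrays. Named genes were those that passed in a dex contrast or its difference, E2f1, Ccne1, Pcna and Mcm2, and from each further list up to 4 that passed with the largest change and 2 that did not with the smallest p, with Cdkn1a, Ccnd1 and Myc. Members, lists and rules were chosen with earlier results of these data known.

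The alternatives were a replicate block, quantile normalization, median centring, array weights, only the groups compared, the mean over a gene's probes, log-odds above 0, a change of at least 0.5 and leaving out each array. Residual correlations exceeded 0.1 in 5 of 24 pairs of same-numbered arrays (highest 0.344) and in 6 of 72 other pairs. The highest values joined dex and DMSO of the same time, in replicates 2 and 3 at 36 h (0.344 and 0.224) and 4 and 2 at 2 h (0.255 and 0.190). The other same-time pairs ran from -0.103 to 0.041. As not every same-numbered pair exceeded 0.1, numbers were not taken as pairs in the main fit. The replicate block, given as an alternative, joins same-numbered arrays of both times, so a pairing within a time was not tested. Whether dex and DMSO samples were paired within a time is not in the labels.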

Additional observations from a re-analysis of the deposited data

Results flagged for a closer look

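Within a group of 4 arrays, a value was marked where its gap to the nearest other array over the group's range exceeded Dixon's 95% critical value. This held for 15 of 164 groups (41 genes in 4 groups of arrays) and for 0 of the 4 groups of the median over the genes, and chance marks about 1 in 20. Dex 2 h replicate 2 gave 6 of the 15 values, which were Cdc45 at -2.36, Orc6 at -2.08, E2f1 at 0.67, Ccne2 at 0.64, Orc1 at -0.47 and Fen1 at 0.33. Dex 2 h replicate 4 stood apart for Mcm2 at -0.43. In DMSO 2 h, replicate 1 stood apart for Gins2 at 1.21, Rpa1 at 0.41 and Mcm6 at 0.32, and replicate 2 for Rrm1 at 0.33. In DMSO 36 h, replicate 2 stood apart for Rfc2 at -0.65 and Rfc5 at -0.34, replicate 1 for Fen1 at -0.10 and replicate 3 for Pola2 at 0.050. No array of dex 36 h was marked.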

How the results depend on the processing

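Of the 41 genes, 6 passed at 36 h (11.7% of all genes), and most counts here have the share of all genes behind them. The count was 8 with the replicate block (10.1%), 12 after quantile normalization (22.1%), 32 with array weights (64.8%, dex 36 h replicate 1 weighted 18.6), 13 with only the groups compared (23.2%), 2 with the mean over probes (Rrm1 and Tk1, 9.16%), 2 by log-odds above 0 (5.23%), 3 with a change of at least 0.5 (6.17%) and 6 after centring (11.8%). With 2 or 3 genes the share among the 41 is near or below that of all genes. Some settings also called genes downward, with 10 up and 3 down (Chaf1a, Rrm2, Tyms) after quantile normalization (11.6% of all genes up). There were 11 up and 2 down (Pold1, Tyms) with only the groups compared (12.5% up), and 27 up and 12 down with array weights (35.2% up). Genes with several probes can count in both. Chaf1a and Rrm2 passed downward without dex 36 h replicate 2, and Chaf1a without DMSO 2 h replicate 4. Downward shares of all genes were not worked out here. Leaving out 1 array gave 3 to 9 (6.56% to 15.7%), with 3 (Ccne1, Mcm7 and Rrm1) without dex 36 h replicate 3 (6.95%) or without DMSO 36 h replicate 2 (6.65%). The median at 36 h was 0.10 to 0.25 with 1 array left out, 0.10 without dex 36 h replicate 3. For the difference between times, 0 passed as reported, 1 with the replicate block (Ccne1, adjusted p = 0.0491, 2.71%), 5 after quantile normalization (7.15%), 1 after centring (3.52%), 21 with array weights (44.2%), 1 with the mean over probes (Rrm1, 2.9%) and 0 to 3 with 1 array left out (2.32% to 4.64%). At 2 h, 6 passed with array weights (14.8%) and 0 to 1 with 1 array left out (2.42% to 3.98%). In DMSO over time, 1 passed after quantile normalization (3.82%), 11 with array weights (33.9%) and 0 to 1 with 1 array left out (0.611% to 2.7%). In dex over time, 1 passed after quantile normalization (4.17%) and 23 with array weights (44.7%). Rrm1 passed at 36 h in 22 of 22 settings, Ccne1 and Mcm7 in 21, Rfc5 in 19 and Rrm2 and Tk1 in 17. Some of these settings drop a 2-hour array, which enters this change only through the shared variance. Tk1 was lost without dex 36 h replicate 1 or 3 or DMSO 36 h replicate 1, 2 or 4 (limma adjusted p up to 0.102). Rrm2 was lost without dex 36 h replicate 1 or 3 or DMSO 36 h replicate 1 or 2, and Rfc5 without dex 36 h replicate 3 or DMSO 36 h replicate 2. These 22 settings leave out log-odds above 0, where Ccne1 and Rrm1 passed. They also leave out a change of at least 0.5, where Rfc5, Rrm1 and Tk1 passed. The mean over probes lost Ccne1 (0.15), Mcm7 (0.25), Rfc5 (0.19) and Rrm2 (0.06). The changes of these 6 genes kept their sign in all of these settings. The causes were not tested. With 4 arrays per group and 1 variance shared with the noisier 2-hour arrays, 21 of 41 genes have an interval at 36 h within ±0.5 (log2). For these genes smaller changes are not settled, and for the others larger changes are not bounded either.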
